A study of Mus musculus with 12 samples.

Results

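The miR-15/16 family is a group of microRNAs (miRNAs) that share the same seed, the short stretch near the 5′ end with which a miRNA pairs to its target messenger RNAs. The 5 members described here, miR-15a-5p (MIMAT0000526), miR-15b-5p (MIMAT0000124), miR-16-5p (MIMAT0000527), miR-195a-5p (MIMAT0000225) and miR-322-5p (MIMAT0000548), were taken by their miRBase accessions from the mouse miRNA tables, where they are 5 of 874 listed mature miRNAs. All 5 had counts in depleted libraries of every mouse, and 4 of the 5 were listed in all 12 libraries.

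Small RNA was sequenced from serum of 3 female athymic NCr nude mice (mice 1046, 1047 and 1069), 4 to 6 weeks old when the tumours were made, which lack T cells. Each mouse gave serum before and 2 weeks after human SH-SY5Y cells, an established neuroblastoma cell line, had been placed under the renal capsule. The input was 50 μl of serum, and for each mouse and time point 1 library was made from RNA depleted of 5′ tRNA fragments, with biotinylated DNA probes and streptavidin beads, and 1 from undepleted RNA. This gave 4 groups of 3 libraries (before undepleted, after undepleted, before depleted and after depleted), all made with the TruSeq kit and 15 PCR cycles. Serum of mice without tumour cells at the later time point was not analysed here, so the tumour, the surgery, the ageing of the mice and a second blood draw cannot be told apart. Serum is a mixture of RNA released from many tissues, so a changed release from 1 cell type and a changed content per cell cannot be told apart either. The study measured hemolysis of the sera by the absorbance of free hemoglobin. Those values were not used here, and a differing degree of hemolysis between the draws was not tested.

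Members of this family are known to repress genes that drive the cell cycle, among them D-type and E-type cyclins, and miR-15a and miR-16 repress the anti-apoptotic gene BCL2. Their locus within DLEU2 is lost in many chronic lymphocytic leukaemias. In blood, miR-16-5p is abundant in red cells and other blood cells, and it is often used as a reference miRNA in serum. miR-195 is known for its part in the cell-cycle exit of heart muscle cells after birth, and miR-322, encoded next to miR-503, for its part in muscle differentiation.

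The mature sequences are shown because the shared seed defines the family and because the bases outside it decide whether short reads of one member can be told from those of another. They are RefSeq records on GRCm38.p6, written 5′ to 3′, with the seed (bases 2 to 8) in capitals.

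miR-16-5p: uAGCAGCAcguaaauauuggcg
miR-15a-5p: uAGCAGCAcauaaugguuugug
miR-15b-5p: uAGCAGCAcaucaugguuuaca
miR-195a-5p: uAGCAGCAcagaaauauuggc
miR-322-5p: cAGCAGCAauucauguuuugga

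All 5 members carry the seed AGCAGCA, as do 5 other mature miRNAs among the 1679 names in the RefSeq table. miR-16-5p and miR-195a-5p were the closest pair, with 2 mismatches over 21 aligned positions. miR-15a-5p and miR-15b-5p differed at 4 of 22 positions. miR-322-5p differed from miR-16-5p at 10 of 22 positions and is the only member that begins with c. Between members the longest identical run was 11 bases, in miR-15a-5p and miR-15b-5p. Reads under 15 bases had been discarded and mismatches were not allowed, so a retained read within a mature sequence fitted 1 member only. Outside the family, miR-195b shares a run of 16 bases with miR-195a-5p, and how reads matching both were counted is not given in the sources used here.

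The members come from 6 hairpins on 4 chromosomes (GRCm38, GENCODE vM21). On chromosome 14, minus strand, Mir15a (chr14:61632027-61632110) lies in an intron of the non-coding gene Dleu2 and Mir16-1 (chr14:61631880-61631972) overlaps an exon of it, with 54 bases between the hairpins. On chromosome 3, plus strand, Mir15b (chr3:69009772-69009835) and Mir16-2 (chr3:69009902-69009996) lie 66 bases apart in an intron of the protein-coding gene Smc4, which encodes a condensin subunit. Mir195a (chr11:70235042-70235135, plus strand) and Mir322 (chrX:53054255-53054349, minus strand) overlap no other annotated gene, and their neighbours are Mir497 and Mir503, at 241 and 200 bases. miR-16-5p is thus made from 2 hairpins, which are shown with the mature sequence in capitals because a single table row holds the reads of both.

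Mir16-1: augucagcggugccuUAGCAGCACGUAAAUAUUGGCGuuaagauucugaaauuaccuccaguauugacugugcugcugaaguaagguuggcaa
Mir16-2: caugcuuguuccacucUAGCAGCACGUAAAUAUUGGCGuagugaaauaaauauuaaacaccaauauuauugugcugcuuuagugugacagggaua

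The mature sequence is bases 16 to 37 of the first hairpin and 17 to 38 of the second. Their products have the same letters, so the level of miR-16-5p could not be divided between the chromosome 14 cluster, which also holds miR-15a-5p, and the chromosome 3 cluster, which also holds miR-15b-5p. How reads matching both hairpins were counted is not given in the sources used here. The share, rank and ratios of miR-16-5p may depend on it.

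The depleted libraries held 938706 to 2271549 mouse miRNA counts and the undepleted ones 21235 to 97183. The smallest was the undepleted library of mouse 1069 before injection. At these depths a count of 0 allowed up to 3 counts, which is 3.20 CPM (counts scaled to the same total in each library) in the shallowest depleted library and 141 CPM in the shallowest undepleted one. Intervals and this limit cover counting error only.

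First, the level of the family in serum was described. Together, the 5 members took 17.0% ± 1.81 (SD, n = 3) of the mouse miRNA counts before injection in undepleted libraries and 9.19% ± 1.67 (SD, n = 3) after it. In depleted libraries the share was 12.3% ± 0.96 (SD, n = 3) before and 6.88% ± 1.09 (SD, n = 3) after injection. The share was lower after injection in each mouse and in both kinds of library, and the before and after groups did not overlap. In single libraries it ranged from 5.77% (95% Wilson interval 5.74 to 5.80) to 18.2% (17.9 to 18.4).

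**Figure D1:**
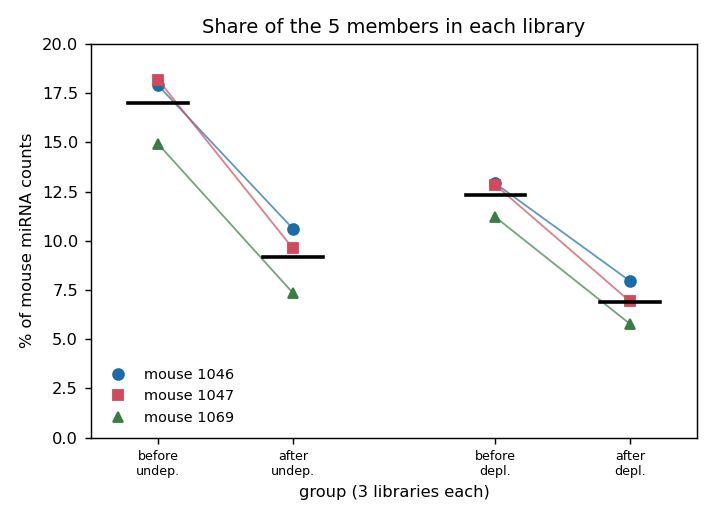
Share of the 5 family members in the mouse miRNA counts (y axis, %) of each of the 12 libraries by group (x axis). Points are libraries, lines join the libraries of 1 mouse, and bars are group means. Each mouse is lower after injection, with means of 17.0% before and 9.19% after in undepleted and 12.3% before and 6.88% after in depleted libraries.

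miR-16-5p made up nearly all of this share, with a mean of 97.2% to 97.6% of the family's counts in each group. It was the most abundant of all mouse miRNAs before injection in the undepleted libraries, ranked 3 in the undepleted libraries after injection, and ranked 3 before and 4 after injection in the depleted libraries. The mature sequences are 21 or 22 bases long and a read covers a whole mature sequence or most of it, so the members were ordered by CPM without a length correction. Ligation and PCR can favour some sequences over others, and PCR copies of 1 molecule were not told apart. Before injection in depleted libraries, miR-16-5p stood at 119916 ± 9896 CPM (SD, n = 3), miR-15a-5p at 2805 ± 144, miR-15b-5p at 273 ± 13.8, miR-195a-5p at 161 ± 87.8 and miR-322-5p at 85.3 ± 14.6. miR-16-5p and miR-15a-5p were first and second in all 12 libraries, and their ranges met neither each other nor those of the members below them. miR-15b-5p and miR-195a-5p overlapped in CPM in this group, as did miR-195a-5p and miR-322-5p.

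The order at the lower end differed between time points. Before injection miR-195a-5p had more counts than miR-322-5p in 3 of 3 depleted and 3 of 3 undepleted libraries, and after injection miR-322-5p had more in 3 of 3 and 3 of 3. In depleted libraries the counts of mice 1046, 1047 and 1069 were 173, 170 and 244 for miR-195a-5p against 123, 125 and 90 for miR-322-5p before injection. After injection they were 217, 176 and 256 for miR-195a-5p against 274, 254 and 298 for miR-322-5p. In undepleted libraries these 2 members had 0 to 14 counts. This change of order was noticed in the data and was not tested.

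**Figure D2:**
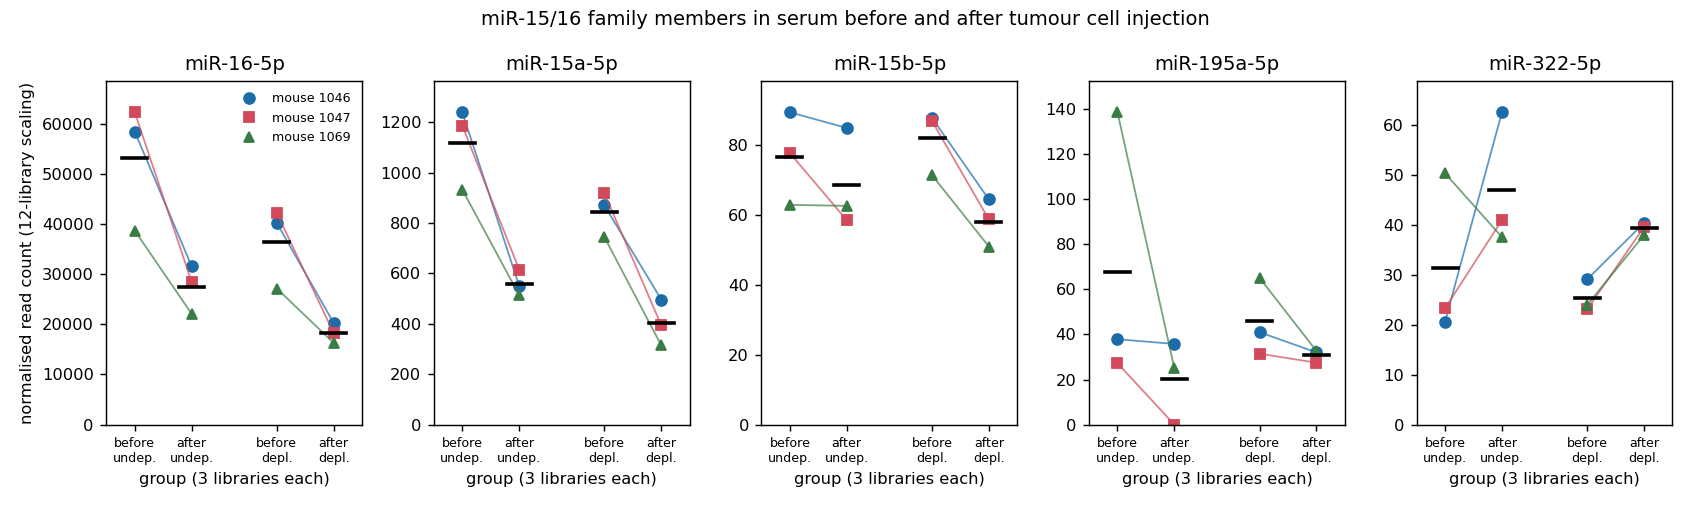
Normalised read counts (y axes, linear from 0, DESeq2 scaling over all 12 libraries) of each member by group (x axes). Points are libraries, lines join the libraries of 1 mouse and bars are group means. miR-16-5p and miR-15a-5p are lower after injection in every mouse and in both kinds of library, while in depleted libraries miR-322-5p is higher in each mouse after injection.

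Next, the libraries after injection were compared with those before it, to assess how circulating members differ once the mice carried the neuroblastoma cells. In depleted libraries miR-16-5p and miR-15a-5p fell, miR-15b-5p and miR-195a-5p were lower without passing the test, and miR-322-5p was the only member with a higher mean. A miRNA was called changed when its DESeq2 Benjamini-Hochberg adjusted p-value was under 0.05 and the change at least 2-fold. By this rule 2 of the 5 members changed, both downwards, and 3 did not pass, against 10.6% of the 310 mouse miRNAs tested (5.81% lower). The median log2 fold change was -0.65 over the 5 members, that of miR-195a-5p, and -0.09 over all miRNAs tested.

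miR-16-5p had 227178, 251137 and 162379 normalised counts (scaled within the 6 depleted libraries) in mice 1046, 1047 and 1069 before injection, and 110238, 96929 and 84144 after it. Every library after injection was below every library before it, and mouse 1069 had the lowest value at both times. The log2 fold change was -1.07 (SE 0.25, DESeq2 adjusted p = 0.000882), a level 2.09-fold lower.

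miR-15a-5p, the cluster partner of miR-16 on chromosome 14, had 4909, 5457 and 4447 normalised counts before injection and 2698, 2091 and 1623 after it. The groups were again apart, with mouse 1069 lowest at both times. The log2 fold change was -1.13 (SE 0.26, DESeq2 adjusted p = 0.000600), a level 2.19-fold lower.

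miR-15b-5p, from the chromosome 3 cluster, had 496, 517 and 427 normalised counts before and 351, 312 and 263 after injection. It was lower in 3 of 3 mice and the groups did not overlap, but the log2 fold change of -0.60 (SE 0.26, DESeq2 adjusted p = 0.107) did not pass the test. miR-195a-5p had 231, 187 and 389 before and 174, 146 and 169 after injection. Its level before injection in mouse 1069 was the highest of the 6, and the log2 fold change was -0.65 (SE 0.31, DESeq2 adjusted p = 0.157). Without mouse 1069 it was -0.34 (adjusted p = 0.397).

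miR-322-5p had 165, 138 and 143 normalised counts before and 220, 210 and 196 after injection. It was higher in 3 of 3 mice and the groups did not overlap, with a log2 fold change of 0.45 (SE 0.28, DESeq2 adjusted p = 0.261). With the scaling within the 6 depleted libraries, none of the 5 members thus overlapped between time points. Of the 310 miRNAs tested, 38.1% did not overlap (17.7% lower and 20.3% higher). For miR-195a-5p the lack of overlap depended on the scaling. Scaled over all 12 libraries, mice 1046, 1047 and 1069 had 41.0, 31.5 and 65.1 before injection. After it they had 32.0, 27.4 and 32.7, so the groups overlapped. They also overlapped in CPM, where mouse 1047 was at 93.4 before and 101 after injection.

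The calls for miR-16-5p and miR-15a-5p rested in part on the scaling and on mouse 1047. Scaled by total counts, which raised the median log2 fold change of the 213 miRNAs with a mean of at least 50 normalised counts by 0.22, their log2 fold changes were -0.81 and -0.88, still with adjusted p under 0.05 but under 2-fold, and without mouse 1047 they were -0.87 (DESeq2 adjusted p = 0.119) and -0.96 (adjusted p = 0.103). With total-count scaling miR-322-5p stood at 0.71, with a DESeq2 adjusted p of 0.0481, under 2-fold.

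In undepleted libraries miR-16-5p and miR-15a-5p were again lower after injection in 3 of 3 mice and their groups did not overlap, as was the case for 39.8% of the 108 miRNAs tested (17.6% lower). miR-16-5p had 10589, 11503 and 7086 normalised counts (scaled within the 6 undepleted libraries) before and 5572, 5056 and 3842 after injection, and miR-15a-5p had 224, 219 and 171 before and 97, 109 and 89 after. Their log2 fold changes were -0.95 (SE 0.24) and -0.9986 (SE 0.25), both with a DESeq2 adjusted p of 0.000907. Both passed the adjusted p and fell just short of 2-fold, at 1.94-fold and 1.998-fold lower, so 0 of 5 members met the full rule, against 11.1% of 108 miRNAs tested. By adjusted p alone 2 of 5 were lower, against 19.4% of 108 (9.26% lower). Without mouse 1046 or mouse 1047 neither of them passed the DESeq2 adjusted p, miR-16-5p with log2 fold changes of -0.94 and -0.76 (adjusted p = 0.142 and 0.960) and miR-15a-5p with -0.84 and -0.90 (adjusted p = 0.325 and 0.787). With edgeR miR-16-5p stood at -1.07 and did not pass (adjusted p = 0.0590).

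The other members were near the limit of detection in these libraries. miR-15b-5p had 5 to 26 counts, miR-195a-5p 0 to 11 and miR-322-5p 4 to 14. Their log2 fold changes were -0.18 (SE 0.45, DESeq2 adjusted p = 0.877), -0.88 (SE 0.51) and 0.41 (SE 0.50), the last 2 without an adjusted p because independent filtering set them aside. For each of these 3 members the groups overlapped. miR-195a-5p was at 0 in the library after injection of mouse 1047, where 3 counts would be 57.7 CPM. The 95% intervals of the 3 members, -1.06 to 0.70, -1.88 to 0.13 and -0.57 to 1.39, included 0 and also the values seen in depleted libraries. Without mouse 1069 miR-195a-5p stood at -0.23, and without mouse 1046 miR-322-5p stood at 0.07.

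**Figure D3:**
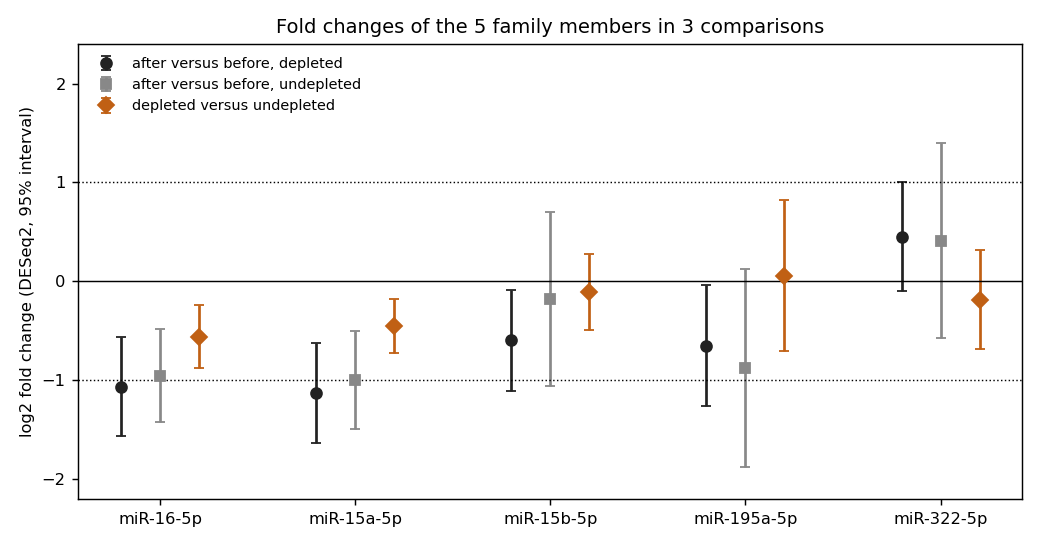
Log2 fold change with its 95% interval (y axis, DESeq2) of each member (x axis) in 3 comparisons: after against before injection in depleted and in undepleted libraries, and depleted against undepleted libraries. Dotted lines mark 2-fold. miR-16-5p and miR-15a-5p lie near -1 after injection in both kinds of library, and the intervals of miR-322-5p span 0.

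Whether the change after injection differed between the 2 kinds of library was tested with an interaction term. It called 0 of 5 members, each with a DESeq2 adjusted p of 0.998, and 0 of all 874 miRNAs (0%). Over all miRNAs, 3 had an unadjusted p under 0.05, and edgeR called 0. The interaction estimate for miR-16-5p was -0.04 with a 95% interval of -0.72 to 0.63, and that for miR-15a-5p was -0.05 with an interval of -0.63 to 0.52. None of the interaction fits paired the 2 libraries of a serum, so the lack of calls does not show that the changes were equal.

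The members were then compared with each other inside each library, since a ratio of 2 members in the same library needs no scaling between libraries. The ratio of miR-16-5p to miR-15a-5p had a log2 value of 5.42 ± 0.20 (SD, n = 3) before and 5.53 ± 0.17 after injection in depleted libraries. The difference of 0.11 was within the spread (exact permutation test, two-sided, p = 0.5, adjusted over 4 ratios p = 0.5). Single mice differed in direction, with -0.18 (95% counting interval -0.25 to -0.11) in mouse 1046, 0.01 (-0.06 to 0.08) in mouse 1047 and 0.51 (0.43 to 0.58) in mouse 1069. In undepleted libraries the difference was 0.05 (exact permutation test, p = 0.8, adjusted over 3 ratios p = 0.8).

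The ratio of miR-16-5p to miR-322-5p differed most between time points. For each read of miR-322-5p there were 1381, 1825 and 1132 reads of miR-16-5p in mice 1046, 1047 and 1069 before injection, and 501, 461 and 429 after it, in depleted libraries. The log2 ratio differed by -1.62, a ratio 3.06-fold lower, and was lower in 3 of 3 mice with no overlap (exact permutation test, two-sided, p = 0.1, adjusted p = 0.2). This p is the smallest that 3 against 3 libraries can give. Inside each mouse the change exceeded counting error, with log2 differences of -1.46 (95% counting interval -1.77 to -1.15), -1.98 (-2.29 to -1.68) and -1.40 (-1.74 to -1.06). In undepleted libraries the ratio was 2832, 2671 and 769 before and 505, 696 and 589 after injection, a log2 difference of -1.60 (exact permutation test, p = 0.1, adjusted p = 0.15), in 3 of 3 mice. There the counting interval of mouse 1069, -2.21 to 1.44, included 0.

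The ratio of miR-16-5p to miR-15b-5p was also lower after injection in each mouse. In depleted libraries it was 458, 485 and 380 before and 314, 311 and 319 after, with no overlap, and the log2 ratio differed by -0.48 (exact permutation test, p = 0.1, adjusted p = 0.2). In undepleted libraries it differed by -0.78 (exact permutation test, p = 0.1, adjusted p = 0.15), but the counting intervals of mice 1046, 1047 and 1069, -1.67 to 0.04, -1.81 to 0.38 and -2.35 to 0.75, each included 0. The ratio to miR-195a-5p differed by -0.46 in depleted libraries (exact permutation test, p = 0.5, adjusted p = 0.5), where it was lower in mice 1046 and 1047 and higher in mouse 1069. In undepleted libraries, where 1 library was at 0, it differed by -0.81 in mouse 1046 and by 1.66 in mouse 1069. With 0.5 counts added to both members it differed by 0.97 over the 3 mice, opposite in sign to the depleted libraries (exact permutation test, p = 0.6, adjusted p = 0.8).

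**Figure D4:**
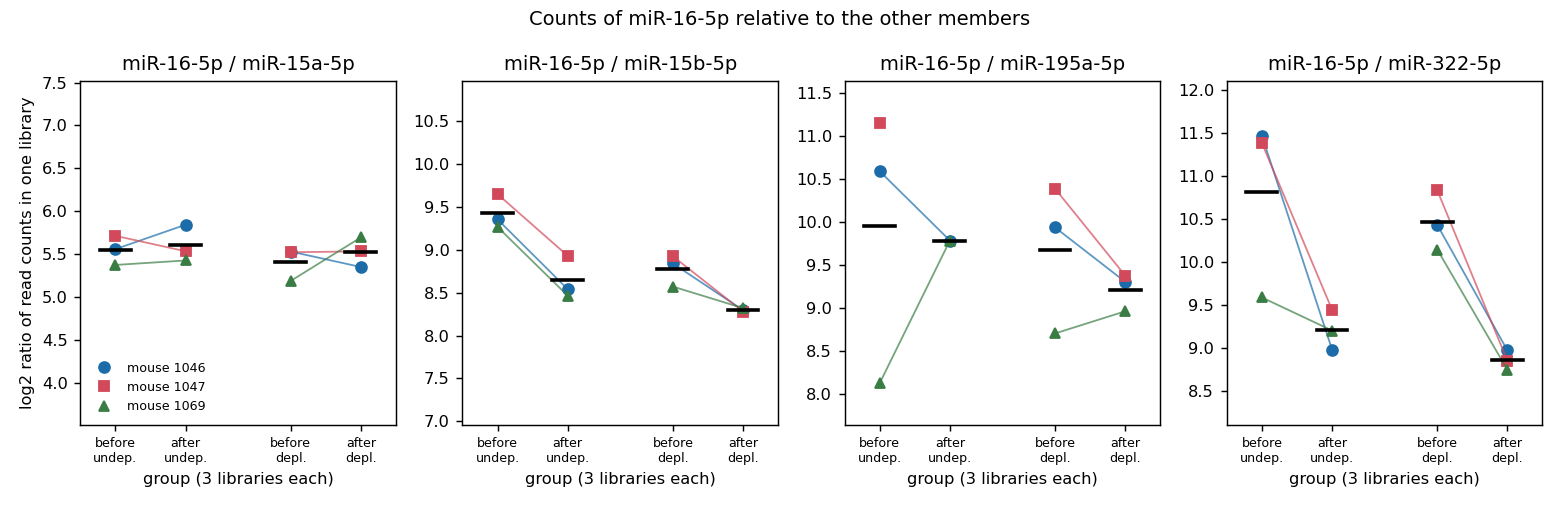
Log2 ratio of miR-16-5p counts to the counts of each other member (y axes, each spanning the same 4 log2 units) in every library by group (x axes). Points are libraries, lines join the libraries of 1 mouse and bars are means of the libraries with counts. The ratio to miR-322-5p differs by -1.62 and -1.60 after injection in depleted and undepleted libraries, and the ratio to miR-15a-5p by 0.11 and 0.05.

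The depletion of tRNA fragments was then examined, to see how the depleted and undepleted libraries of 1 serum differ in their members. With the scaling over 12 libraries, miR-16-5p and miR-15a-5p were lower in the depleted library of 6 of 6 sera, by less than 2-fold. The 3 rarer members showed no common direction. miR-16-5p had a log2 ratio of depleted to undepleted normalised counts of -0.54, -0.56 and -0.51 in the sera before injection of mice 1046, 1047 and 1069, and of -0.64, -0.64 and -0.44 in those after it. The 6 values had an SD of 0.08. In the DESeq2 fit over 12 libraries its log2 fold change was -0.56 (SE 0.16, adjusted p = 0.00525), a level 1.47-fold lower. For miR-15a-5p the ratios were -0.51, -0.37 and -0.33 before and -0.15, -0.64 and -0.71 after injection, with a log2 fold change of -0.45 (SE 0.14, DESeq2 adjusted p = 0.0104).

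miR-15b-5p was lower in 3 of 6 sera (log2 fold change -0.11, SE 0.20, DESeq2 adjusted p = 0.856), miR-322-5p in 4 of 6 (-0.19, SE 0.26, adjusted p = 0.781) and miR-195a-5p in 2 of the 5 sera with counts in both libraries (0.06, SE 0.39, adjusted p = 0.932). Their 95% intervals ran from -0.50 to 0.28, from -0.69 to 0.31 and from -0.71 to 0.82. No member passed the 2-fold rule, against 8.36% of 383 miRNAs tested, and 2 of 5 passed by adjusted p alone, against 14.4% (5.74% lower).

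The size of this difference depended on the scaling, and for miR-15a-5p so did its direction in the serum of mouse 1046 after injection. In CPM miR-15a-5p stood there at 1887 in the depleted and 1805 in the undepleted library. With TMM factors, which raised the median log2 fold change of the 115 miRNAs with a mean of at least 50 normalised counts by 0.27, miR-16-5p was at -0.29 and miR-15a-5p at -0.18, and neither passed the adjusted p, nor did they with edgeR. Scaled by total counts, miR-16-5p was at -0.44 (DESeq2 adjusted p = 0.0024) and miR-15a-5p at -0.32 (adjusted p = 0.12). In the sera before injection only, their DESeq2 adjusted p was 0.643 and 0.661, and in those after it 0.0268 and 0.181. Without mouse 1046 or mouse 1047 the adjusted p of both members was over 0.05, between 0.345 and 0.4998, at log2 fold changes of -0.39 to -0.56. That fit did not pair the libraries of a serum. With the serum as a block, over all mice, miR-16-5p stood at -0.56 (SE 0.039, DESeq2 adjusted p = 3.89e-43) and miR-15a-5p at -0.44 (SE 0.090, adjusted p = 9.66e-06). The block was run with the main scaling only, so these p-values do not cover the shift between scalings. Against miR-15b-5p in the same library, free of scaling, miR-16-5p was lower by 0.49 on the log2 scale in the depleted library of 6 of 6 sera (exact sign-flip permutation test, two-sided, p = 0.03125, the smallest 6 sera can give, adjusted over 4 ratios p = 0.125). Against miR-15a-5p it differed by -0.11 (exact sign-flip permutation test, p = 0.406, adjusted p = 0.406), against miR-195a-5p by -0.43 (5 sera, exact test, p = 0.1875, adjusted p = 0.25, and -0.93 over 6 sera with 0.5 counts added, p = 0.125, adjusted p = 0.25) and against miR-322-5p by -0.35 (exact test, p = 0.1875, adjusted p = 0.25). The 6 sera come from 3 mice, so they are not fully independent.

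**Figure D5:**
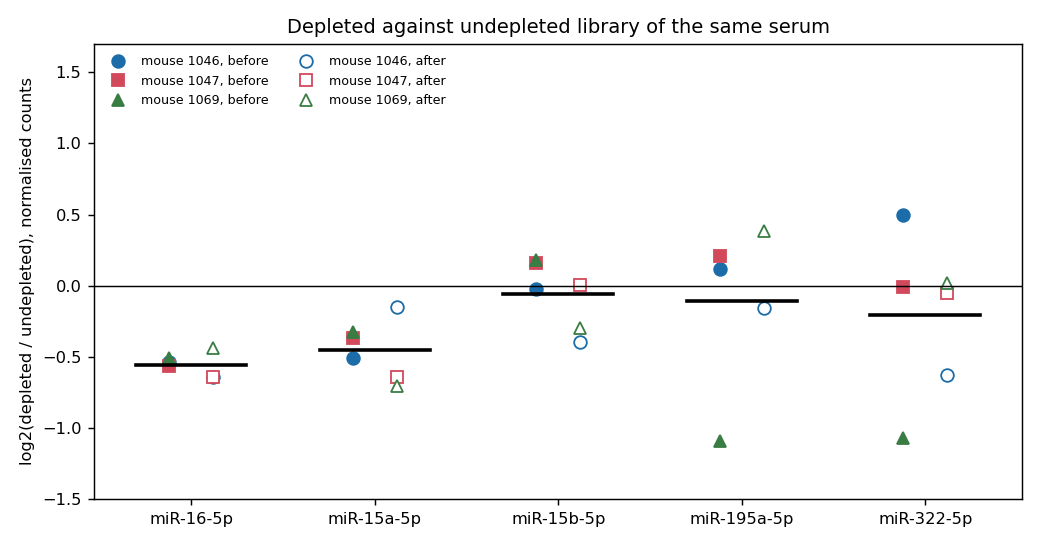
Log2 ratio of normalised counts (DESeq2 scaling over all 12 libraries) in the depleted to the undepleted library of each serum (y axis) for each member (x axis). Filled points are sera before and open points sera after injection, and bars are means. All 6 sera lie below 0 for miR-16-5p and miR-15a-5p, while the other members scatter around 0.

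The same reads had also been counted against human miRNAs, and SH-SY5Y cells are human, so the human tables were searched for the row nearest to each member. For miR-16-5p and for miR-15b-5p a human row held identical counts in all 12 libraries. For miR-15a-5p the nearest row differed by 2 of 20818 counts and for miR-195a-5p by 11 of 1277. For miR-322-5p no human row came within 10% of its 1207 counts, the nearest differing by 17.1%. After injection, the counts of the 4 members with a near-identical human row therefore cannot be divided between mouse and human RNA. Before injection the mice carried no human cells. The lower level of miR-16-5p and miR-15a-5p after injection was that of mouse and human RNA together. Fitted among the 466 human rows, miR-15a-5p stood at -1.04 (SE 0.26, DESeq2 adjusted p = 0.00229) and miR-16-5p at -0.98 (SE 0.26, adjusted p = 0.00371) after injection in depleted libraries, the latter just under 2-fold.

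Finally, the miRNAs whose pattern was most like that of miR-16-5p were sought over the 6 depleted libraries. Of the 158 other miRNAs with at least 50 counts in each of these libraries, 21 had a Pearson's r over 0.9 with miR-16-5p, and the median r was 0.22. The 5 nearest had r from 0.984 to 0.997, and from 0.764 to 0.989 in the 6 undepleted libraries, which come from the same sera. Their log2 fold changes after injection lay between -1.20 and -0.91, which follows in part from the choice, since r spans both time points. The nearest were MIMAT0000652 (r = 0.997) and MIMAT0001632 (r = 0.996), which the tables used here do not pair with names. Among the members, r in depleted and undepleted libraries was 0.985 and 0.706 for miR-15b-5p, 0.971 and 0.959 for miR-15a-5p, 0.454 and 0.327 for miR-195a-5p and -0.83 and -0.64 for miR-322-5p. These correlations share libraries and scaling and are given as a description. Cluster neighbours, other miRNAs with the seed and markers of red cells, leukocytes, liver or muscle could not be matched to accessions, so how they moved with the family was not tested.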

How the data were processed

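Serum small RNA was measured in 12 libraries. Per the labels and the study's methods, the authors trimmed adaptors with Cutadapt 1.8.1, discarded reads under 15 bases, mapped the rest with Bowtie 1.1.2 without mismatches to GRCm38/mm10 or GRCh37/hg19, and counted reads per mature miRNA by miRBase coordinates. The deposited values are raw read counts, 1 table per library and species, with unlisted miRNAs taken as 0. How multi-mapping reads were counted is not given in the sources used here.

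The members and lists were chosen with earlier results of these data known. The text names the 5 members and, by likeness to miR-16-5p, the 2 nearest of 5 other miRNAs. Sample groups and mouse numbers came from the labels. Each kind of library was fitted on the whole mouse table with DESeq2 1.42.0 in R 4.3.3 (Wald test, zero-centred prior, time point as the only term, miRNAs with at least 1 count). Depletion was fitted on 12 libraries with time point as covariate, and the interaction without the prior. Ratios were tested by exact permutation in Python 3.11.15 with NumPy 2.4.6. Wilson intervals and Pearson's r came from SciPy 1.17.1. Libraries of a group were not identical. The script was tested on simulated data. The libraries of a group come from separate mice. Depth was 938706 to 2271549 counts per depleted and 21235 to 97183 per undepleted library. Sequences came from RefSeq (all 5 members matched), hairpin positions from GENCODE vM21.

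Before and after samples come from the same mice and the depleted and undepleted libraries of a mouse and time point from the same serum. Deviations from group means correlated at a mean of -0.15 (depleted) and -0.21 (undepleted) within mice, and 0.57 and 0.50 within sera before and after injection. Alternatives were TMM and total-count scaling, size factors without the members, edgeR 4.0.16, a filter of at least 4 counts, no prior, adjusted p alone, the mouse or serum as a block, leaving out each mouse, the human tables, and 0.5 counts added to ratios.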

Additional observations from a re-analysis of the deposited data

Results flagged for a closer look

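The log2 ratio of miR-16-5p to miR-195a-5p in the depleted minus the undepleted library was 0.58 for the serum of mouse 1069 before injection, above the other 4 sera with counts in both libraries, by a gap that was 0.756 of the whole range of the 5 values. Gaps of this size can arise by chance among 5 values, and how often was not computed. The undepleted library of this serum was the shallowest library, with 11 counts of miR-195a-5p and 21235 in all, and the part of depth in this value was not tested.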

How the results depend on the processing

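Of the 208 member fold changes under the alternatives, 180 kept their direction and side of the threshold. These include members not called in the main fit, which could keep their side by staying uncalled. The alternative of adjusted p alone reuses the main estimates. After injection in depleted libraries, 0 members changed with total-count scaling, 1 with the human tables, and 0 to 2 leaving out a mouse (0 without mouse 1047). Total-count scaling also turned the calls over all miRNAs from 15 higher and 18 lower to 32 higher and 5 lower. Adjusted p alone raised the calls over all miRNAs from 33 to 52, and without mouse 1047 or 1069 they were 11 and 19. In undepleted libraries 1 member (miR-15a-5p) changed with TMM factors, with size factors without the members (an alternative chosen after seeing the data), with edgeR and with the low-count filter, and 2 changed without the prior and by adjusted p alone, and 0 to 2 leaving out a mouse. Calls over all miRNAs went from 12 to 21 by adjusted p alone, and to 1 and 7 without mouse 1047 and 1069. In the depletion fit, 2 members passed by adjusted p alone, and calls over all miRNAs went from 32 to 55 by adjusted p alone, to 17 with sera before injection only and to 19 without mouse 1046. TMM factors split them into 32 higher and 10 lower, against 19 and 13. The cause of these moves was not tested.

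Directions turned only in estimates that passed no test. In the depletion fit these were miR-15b-5p at 0.15 (TMM), 0.035 (total counts), 0.16 (edgeR) and 0.080 (sera before injection only), miR-322-5p at 0.053 (TMM) and 0.058 (edgeR), and miR-195a-5p at -0.28 (sera before injection only) and from -0.19 to 0.28 leaving out a mouse. Interaction estimates ranged leaving out a mouse from -0.59 to 0.37 for miR-322-5p and from -0.35 to 0.12 for miR-15a-5p. The log2 ratio of miR-16-5p to miR-15a-5p ranged from -0.085 to 0.26 in depleted and from -0.064 to 0.17 in undepleted libraries.

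With the replicate block for mouse or serum, 2 members changed in depleted libraries (miR-16-5p -1.05, miR-15a-5p -1.14), 0 in undepleted libraries and 0 in the depletion fit, and the block changed no call of a member. The log2 ratio of miR-16-5p to miR-322-5p was -1.62 with the block in depleted libraries (exact sign-flip permutation test, adjusted p = 0.5), where 3 mice cannot give an unadjusted p under 0.25. Without the most abundant other miRNA in the total, an alternative chosen after seeing the data, the family took 14.3% before and 8.09% after injection in depleted and 19.6% before injection in undepleted libraries. Size factors and totals without red cell markers were not run, because accessions were not paired with names. In undepleted libraries miR-15b-5p, miR-195a-5p and miR-322-5p had 0 to 26 counts and the largest standard errors of the members.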
